A study of Neurospora crassa with 5 samples.

Results

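Among 8638 genes tested in protoperithecial cultures of Neurospora crassa, 121 had their highest value after crossing at least 0.8 log2 units, a 1.74-fold step, below their lowest value before crossing. These 121 genes, lower in every crossed library, are described here. They make up 1.40% of the genes tested, and 56 genes (0.648%) lay above both uncrossed libraries by the same margin. The values that chose the members are log2 CPM (counts scaled to library size, with a prior count of 2) in the same 5 libraries that are described below, so the difference between the groups is a description and carries no test.

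Neurospora crassa is a filamentous fungus with mating types A and a. A protoperithecium is its immature female fruiting body, which is fertilised when a hypha growing from it meets a cell of the other mating type, often an asexual spore (conidium), after peptide pheromones have been exchanged. Each mating type secretes its own pheromone and carries the receptor for that of the other, and after fertilisation the protoperithecium grows into a perithecium in which meiosis takes place.

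The crossed group held 3 libraries (replicates 1, 2 and 3) from mutant protoperithecia taken 2 h after conidia of the wild type FGSC#2489 were added. The uncrossed group held 2 libraries (replicates 1 and 3) from the same mutant at 0 h, after 6 days of growth on crossing medium. No uncrossed library was taken at 2 h, so added conidia and elapsed time cannot be told apart. Both groups are labelled as 1 strain, FGSC#4564. Its genotype is given as mat a[m1]s-3B with cyh-1. All libraries thus share the mutation of the mating-type gene mat 1-2-1, the marker written as s-3B and the cyh-1 allele. Per the labels' protocols, 1 plate made 1 replicate. The series text also speaks of a comparison with the wild type, and wild-type cultures were not analysed here. The crossed libraries can hold RNA of the added conidia as well, and no library of conidia alone was used. Transcripts of the other mating type were counted in both groups. In the uncrossed libraries, taken at 0 h, this goes against the label mat a. In the crossed libraries such transcripts may also come from the added conidia. In such bulk samples fewer cells of a type and less RNA per cell cannot be told apart.

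The libraries held 31063642 to 39592703 counts after crossing and 25817200 and 39639683 before it. Ribosomal RNA genes took 19.3% to 34.0% of the counts in the crossed libraries and 14.3% and 21.3% in the uncrossed libraries. Crossed replicate 1 stood apart from crossed replicates 2 and 3, by a median of 0.22 log2 units over all genes in either direction, and the uncrossed libraries differed from each other by 0.22, while crossed replicates 2 and 3 differed by 0.08. The genes of the A mating type set the libraries apart as well. The gene matA-1 (NCU01958), which lies in the DNA segment that only mat A strains carry, had 255, 935 and 686 counts in crossed replicates 1, 2 and 3, against 152 and 729 counts in uncrossed replicates 1 and 3. The gene ccg-4 (NCU02500), which encodes the pheromone precursor of mat A strains, had 8.16, 128.2 and 128.1 CPM in crossed and 9.12 and 69.5 CPM in uncrossed libraries. The gene matA-3 (NCU01960), of the same segment as matA-1, had 0, 13 and 7 counts in crossed and 0 and 17 counts in uncrossed libraries. All 3 thus had more counts in uncrossed replicate 3, taken at 0 h, than in crossed replicate 1, and their part in the members' values was not tested.

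The number of genes that met the rule was 393 without crossed replicate 1, 206 without uncrossed replicate 1 and 566 without uncrossed replicate 3. The number was 142 without crossed replicate 2 and 140 without crossed replicate 3. A rule on extremes is easier to meet with fewer libraries, but the number also depended on which library was left out.

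The median member had a lower level than the median tested gene in both groups, and the members' values were about 4-fold lower after crossing at the median. Their median log2 fold change was -1.95 (quartiles -2.47 and -1.46), where the median of all genes tested was 0.000797. The median member averaged 2.31 CPM in crossed and 9.53 CPM in uncrossed libraries, against 35.8 and 36.1 CPM for all genes tested. A mean of at least 10 CPM was reached by 30 members in crossed and 58 members in uncrossed libraries. A mean of at least 100 CPM was reached by 3 members after crossing and by 12 before it. The level at which the filter keeps a gene (0.305 CPM) was reached in fewer than 2 crossed libraries by 24 of the 121 members, and these passed the filter only through the uncrossed libraries. Together the members took 2726, 1847 and 1922 CPM in crossed replicates 1, 2 and 3, and 12086 and 5876 CPM in uncrossed replicates 1 and 3.

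**Figure D1:**
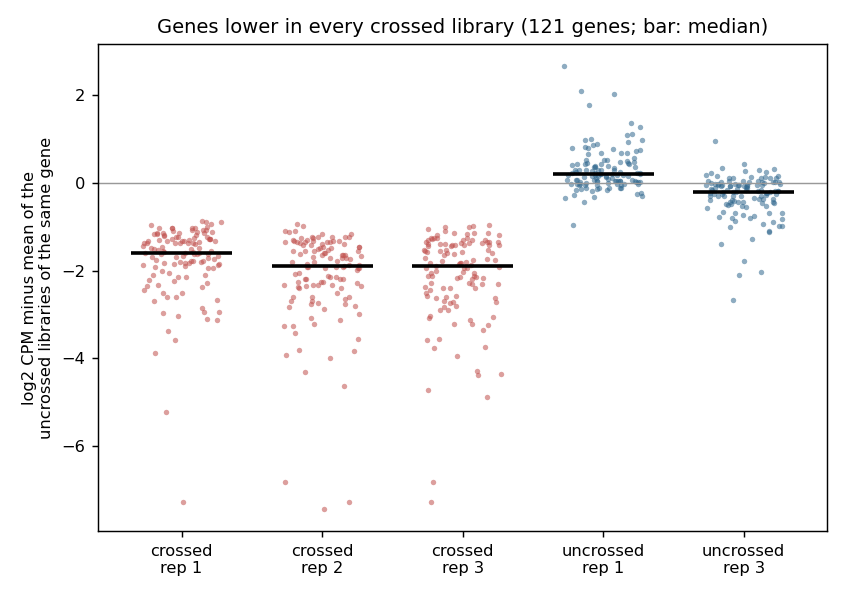
Each point is 1 of the 121 members in 1 library, as its log2 CPM minus the mean log2 CPM of that gene in the uncrossed libraries, and the bars are medians. The medians were -1.59, -1.90 and -1.90 in crossed replicates 1, 2 and 3, against 0.20 and -0.20 in uncrossed replicates 1 and 3.

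In edgeR's quasi-likelihood test over all genes, 3 members passed an adjusted p of 0.05, and they are all the genes called lower (0.0347% of those tested). DESeq2 called 104 of the 117 members to which it gave an adjusted p, where it called 5.98% of the genes it tested lower. The groups lay apart in the lower direction, by any margin, in 20.6% of the genes tested. The same contrast chose the members, so these counts are printed as background only.

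Only 8 members (6.61%) carry a gene symbol other than their locus tag in the gene table used here, where 12.7% of all tested genes do. The other 113 are known by locus tag alone in that table, and no role is given to them. The first of the 8 by role is the pheromone gene mfa-1 (NCU16992, chromosome V), which encodes the precursor of the lipid-modified peptide pheromone that mat a strains secrete. It had 29.7, 30.7 and 28.1 CPM in crossed replicates 1, 2 and 3, against 61.0 and 59.7 CPM in uncrossed replicates 1 and 3. The libraries of each group were close together and the groups lay 0.96 log2 units apart. Its log2 fold change was -1.03 (SE 0.09). Of the 6 tested genes of the mating-type and pheromone list, mfa-1 alone met the rule and none was higher by the same margin. The mating-type genes of this list are those of mat A only, and the row mat_a1 was left out of the counts. The list's median log2 fold change was 0.17. In the other 5, the mat A genes named above and the pheromone receptor genes pre-1 and pre-2, the groups overlapped.

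Among the members were 2 transporter genes. The gene pho-5 (NCU08325, chromosome IV), a high-affinity phosphate transporter, had 41.3, 32.9 and 35.3 CPM in the crossed libraries against 107.6 and 78.3 CPM in the uncrossed ones, with a log2 fold change of -1.35 (SE 0.17). The gene hak-1 (NCU00790, chromosome I), a potassium transporter, had 61.9, 29.6 and 31.9 CPM in crossed replicates 1, 2 and 3, against 116.5 and 109.8 CPM in uncrossed replicates 1 and 3. Its crossed replicate 1 was about midway between the other crossed libraries and the uncrossed ones, and it entered with a gap of 0.83.

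The other 5 members with symbols encode enzymes. The gene fdh (NCU03813, chromosome V), a formate dehydrogenase that oxidises formate to carbon dioxide, had 430, 390 and 442 CPM in crossed replicates 1, 2 and 3, against 2160 and 1027 CPM in uncrossed replicates 1 and 3. The crossed libraries were alike, while the uncrossed pair differed by more than the crossed libraries did, with averages of 421 ± 27.5 CPM (SD, n = 3) after crossing against 1593 ± 801 CPM (SD, n = 2) before it. The catalase gene cat-3 (NCU00355, chromosome III), whose product breaks down hydrogen peroxide, had 82.1, 17.2 and 15.9 CPM after crossing against 351 and 172 CPM before it. Its crossed replicate 1 lay well above the other crossed libraries and still below both uncrossed ones. The gene npd-1 (NCU03949, chromosome VI), which the table also lists as ncd-2, had 67.9, 48.3 and 50.3 CPM in crossed libraries and 190.8 and 150.2 CPM in uncrossed libraries.

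The gene gh18-6 (NCU05317, chromosome IV), of the glycoside hydrolase family that holds the chitinases, was steady within both groups. It had 16.7, 16.3 and 15.8 CPM in crossed replicates 1, 2 and 3 and 35.3 and 40.9 CPM in uncrossed replicates 1 and 3, a log2 fold change of -1.23 (SE 0.11). The tyrosinase gene T (NCU00776, chromosome I), whose enzyme oxidises tyrosine on the way to melanin, was the opposite case. It had 0.196, 0.291 and 0.219 CPM in crossed replicates 1, 2 and 3, against 15.5 and 0.860 CPM in uncrossed replicates 1 and 3. The size of its difference therefore rested on uncrossed replicate 1, and its mean before crossing was 8.17 ± 10.3 CPM (SD, n = 2).

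**Figure D2:**
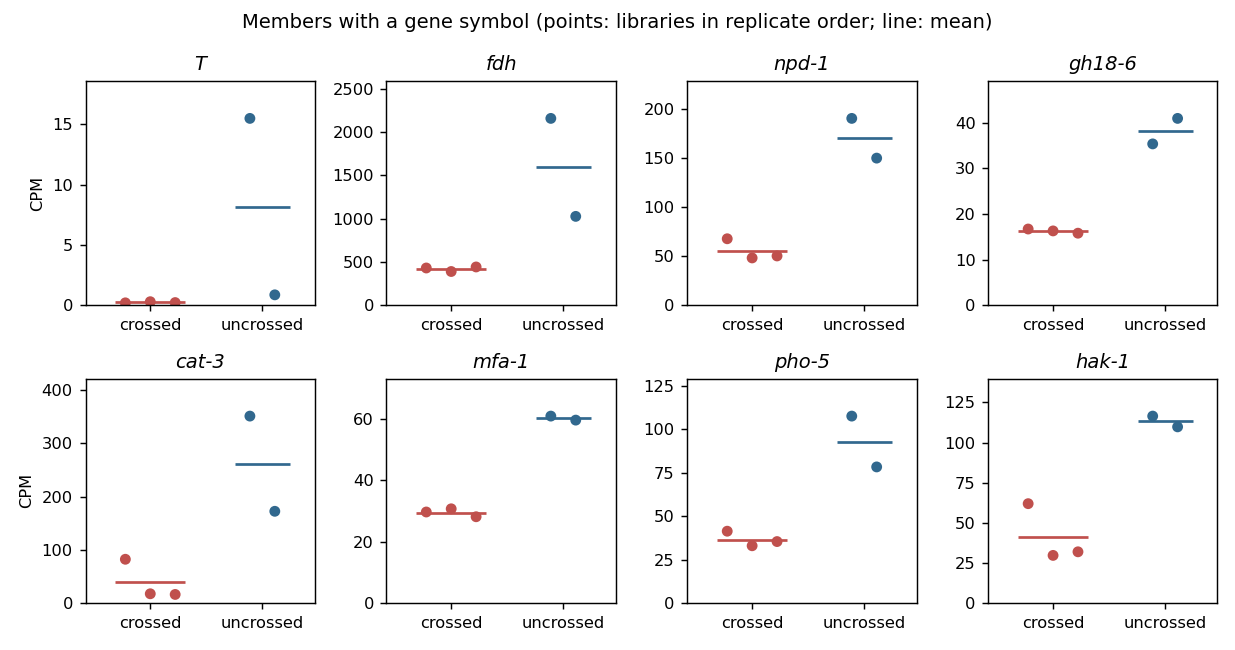
CPM of the 8 members with a gene symbol, on linear axes that start at 0, with 1 point per library in replicate order and a line at each group's mean. The libraries of each group lie close together in mfa-1 and gh18-6, while in T the high mean before crossing comes from uncrossed replicate 1 (15.5 CPM) and in cat-3 crossed replicate 1 (82.1 CPM) lies above the other crossed libraries.

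The widest separation belonged to NCU16430 (chromosome I), a gene with 0 counts in each crossed library and 303 and 344 counts in uncrossed replicates 1 and 3. It averaged 9.26 ± 1.48 CPM (SD, n = 2) before crossing. Set against the level of 3 counts in 1 library, which a count of 0 allows (0.110 CPM in crossed replicate 3), it was at least 84.6-fold lower. NCU16430 overlaps its neighbour NCU00856 in the gene table, and NCU00856 had 18.5, 19.8 and 17.2 CPM in crossed libraries and 18.5 and 20.8 CPM in uncrossed libraries. No source used here says whether the counting separated the reads of these genes, so the value of NCU16430 is uncertain.

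The other members with no count in any crossed library were NCU07152, NCU10186 and NCU16961. They were rare in the uncrossed libraries too, with 11 and 23, 10 and 13, and 8 and 14 counts in uncrossed replicates 1 and 3. Against the same level of 3 counts they were at least 4.22-fold, 2.97-fold and 2.77-fold lower. A further 10 members had 0 counts in 1 or 2 crossed libraries.

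The other 4 of the 8 genes with the largest gaps had reads after crossing. NCU09099 (chromosome I) had 0.953, 0.902 and 0.840 CPM in crossed replicates 1, 2 and 3, against 5.72 and 7.12 CPM in uncrossed replicates 1 and 3, a log2 fold change of -2.83 (SE 0.23). Its groups lay 2.51 log2 units apart, and its libraries differed little within either group. NCU08179, NCU07752 and NCU02029 had means of 0.271, 0.0739 and 0.244 CPM in crossed and 1.84, 0.787 and 1.45 CPM in uncrossed libraries. These last 3 rest on few reads, and the highest value among them was 2.04 CPM, of NCU08179 in uncrossed replicate 1.

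**Figure D3:**
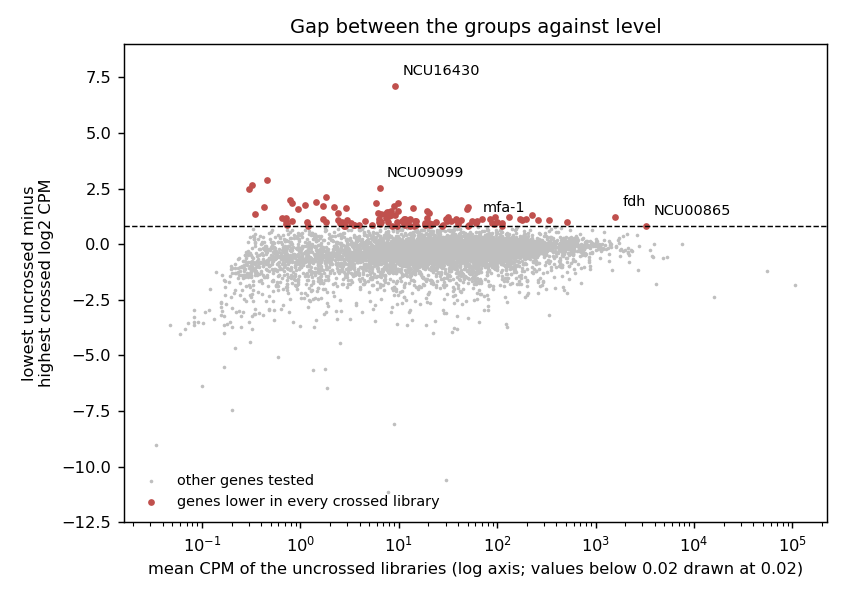
For every tested gene the vertical axis gives its lowest uncrossed minus its highest crossed log2 CPM and the horizontal axis its mean uncrossed CPM on a log scale. The dashed line is the threshold of 0.8. The members (red) run from 0.303 to 3269 CPM, within a range of 0.0340 to 107532 CPM for all tested genes, and NCU16430 lies alone at a gap of 7.12.

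The members that took the most counts were NCU00865, fdh, NCU09698, NCU04482, cat-3 and NCU16942. NCU00865 (chromosome I) had 919, 417 and 428 CPM in crossed replicates 1, 2 and 3, against 4911 and 1628 CPM in uncrossed replicates 1 and 3. Per kilobase of its gene span it averaged 265 CPM after crossing and 1473 CPM before it, the highest such level of the 6 in both groups. NCU00865 overlaps NCU00864 in the gene table, which had 65.0, 88.2 and 84.8 CPM in crossed and 61.0 and 78.0 CPM in uncrossed libraries. NCU09698 (chromosome V) had 189, 176 and 183 CPM in crossed libraries against 644 and 381 CPM in uncrossed ones. NCU16942 (chromosome V) had 62.0, 35.1 and 39.4 CPM against 293 and 155 CPM. In each of these 3 genes uncrossed replicate 1 was the highest library. NCU04482 (chromosome IV) ran the other way before crossing, with 114.9, 64.5 and 66.5 CPM in crossed replicates 1, 2 and 3, against 240 CPM in uncrossed replicate 1 and 434 CPM in uncrossed replicate 3.

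The 3 members past edgeR's threshold had little spread inside the groups. NCU05156 (chromosome VI) had 53.3, 55.5 and 54.7 CPM in crossed libraries against 131.1 and 134.6 CPM in uncrossed libraries. NCU03323 (chromosome I) had 36.9, 37.7 and 39.6 CPM against 98.2 and 92.1 CPM. NCU07610 (chromosome IV) had 38.3, 35.5 and 38.2 CPM against 86.6 and 82.9 CPM. Their log2 fold changes were -1.29 (SE 0.08), -1.32 (SE 0.09) and -1.18 (SE 0.09), all smaller than that of the median member. None of the 3 passed the threshold without uncrossed replicate 1, without crossed replicate 2 or without crossed replicate 3.

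The libraries within a group were ordered alike in many members. Uncrossed replicate 1 lay above uncrossed replicate 3 in 93 of the 121 members (76.9%). Crossed replicate 1 lay above both other crossed libraries in 70 members (57.9%). Both held together, with uncrossed replicate 1 highest and then uncrossed replicate 3, crossed replicate 1 and the other two, in 55 members (45.5%). Among the 1781 tested genes whose crossed libraries lay below both uncrossed ones by any margin, these shares were 77.0%, 64.2% and 49.6%. The order inside the groups is therefore not particular to the members, since genes that meet a smaller margin in the same direction had it at similar or higher shares.

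The size of the differences inside the groups varied widely. The median member was 0.40 log2 units higher in uncrossed replicate 1 than in replicate 3, and 0.24 higher in crossed replicate 1 than in the mean of replicates 2 and 3. For all genes these medians were -0.0046 and -0.0047. Without regard to direction, the uncrossed libraries differed by a median of 0.48 in the members and crossed replicates 2 and 3 by 0.16. In 29 members the uncrossed replicates differed by more than the gene's own gap between the groups, as they did in 1136 of all 1781 genes whose groups lay apart in this direction. Uncrossed replicate 1 was at least 2-fold above replicate 3 in 28 members (23.1%) and at least 2-fold below it in 1 (0.826%), against 3.97% and 3.46% of all tested genes.

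At one end of that range, and singled out after its values were seen, NCU09163 (chromosome III) had 0.505, 0 and 0 CPM in crossed replicates 1, 2 and 3, against 42.8 and 1.00 CPM in uncrossed replicates 1 and 3. NCU02927 and NCU01292, chosen in the same way, had 35.1 and 156.3 CPM in uncrossed replicate 1 but 1.84 and 23.0 CPM in uncrossed replicate 3, against highest crossed values of 0.913 and 11.7 CPM. The member in which uncrossed replicate 3 was higher by over 2-fold was NCU00039 (chromosome III), with 0.897, 1.11 and 0.730 CPM after crossing against 3.71 and 14.2 CPM before it. At the other end, 16 members (13.2%) had both the uncrossed and the crossed libraries within 0.3 log2 units of each other, where 38.4% of all genes did.

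**Figure D4:**
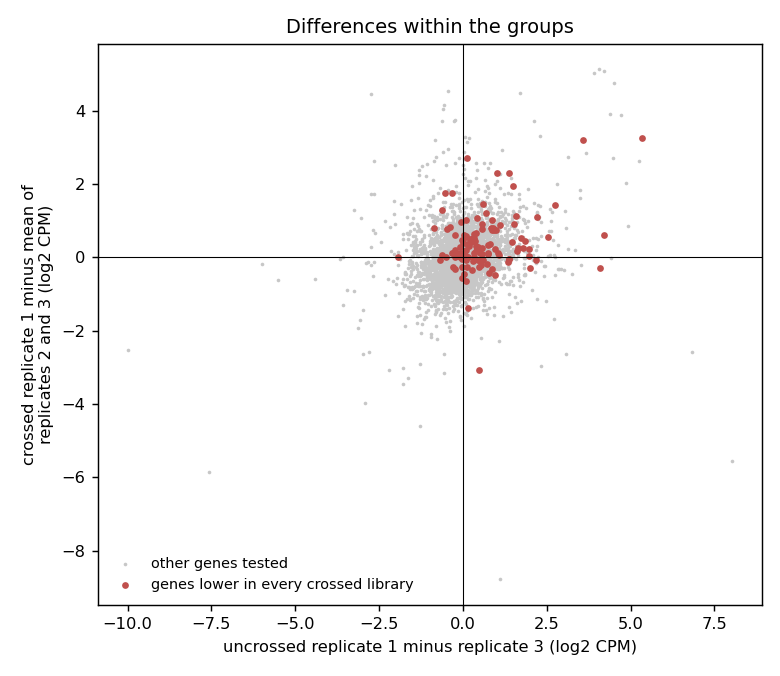
Each point is a gene, placed by uncrossed replicate 1 minus replicate 3 (horizontal) and by crossed replicate 1 minus the mean of crossed replicates 2 and 3 (vertical), in log2 CPM. The members (red) are displaced to the right, by 0.40 at the median, and upwards, by 0.24, from the other genes tested (grey). The 1781 tested genes with all crossed libraries below both uncrossed ones lean the same way. In 77.0% of them uncrossed replicate 1 was above replicate 3, and in 64.2% crossed replicate 1 was above the other crossed libraries.

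Among the crossed libraries the widest ranges were in NCU02920, NCU05848 and NCU05730. NCU02920 (chromosome I) had 1.26, 0 and 0.292 CPM in crossed replicates 1, 2 and 3, against 35.6 and 2.94 CPM in uncrossed replicates 1 and 3. NCU05848 (chromosome VII) had 2.75, 0.699 and 0.183 CPM against 6.60 and 6.04 CPM. In both, crossed replicate 1 was the highest crossed library. NCU05730 (chromosome III) went the other way, with 0, 0.524 and 0.365 CPM after crossing and 2.55 and 1.82 CPM before it. The narrowest ranges belonged to the genes with no crossed counts.

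Near the threshold the last genes inside were NCU05852, with a gap of 0.81, and NCU08491, with a gap of 0.80. NCU08491 had 5.33, 5.15 and 6.21 CPM in crossed libraries and 10.9 and 17.5 CPM in uncrossed libraries. The first genes outside were NCU06905 and NCU09796, both with a gap of 0.79. NCU09796 had 1.96, 1.22 and 0.767 CPM in crossed libraries against 3.44 and 3.46 CPM in uncrossed libraries.

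Some members were next to each other in the genome. Along the gene order of assembly NC12, restricted to tested genes, 24 members (19.8%) had another member as the next gene on either side, while 2.76% of all tested genes had a member there. They formed 12 pairs and no longer run. No pair overlaps in the gene table, and in 9 pairs no other gene of the table lies between. Those 9 are NCU07464 with NCU07463, NCU03287 with NCU03288, NCU03322 with NCU03323, NCU00947 with NCU00946, NCU07819 with NCU07820, NCU16632 with NCU16633, NCU16942 with NCU09669, NCU05586 with NCU05585, and NCU05043 with NCU05042. The remaining pairs are NCU08884 with NCU09698, NCU07152 with NCU07150, and NCU08179 with NCU11383, with 1, 1 and 3 untested genes between. The members of a pair could differ widely in level. Per kilobase of gene span NCU03323 averaged 18.8 CPM in crossed and 47.0 CPM in uncrossed libraries, and its neighbour NCU03322 averaged 0.744 and 2.13 CPM, with log2 fold changes of -1.32 and -1.51. NCU03287 and NCU03288 had fold changes of -2.36 and -2.47 on the log2 scale, and in both uncrossed replicate 3 was above replicate 1.

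A stretch on chromosome VI held 5 members among 11 successive tested genes, found after the values were known by allowing at most 4 tested genes between members. The same search gave 1 other group of 3 or more, NCU07819, NCU07820 and NCU07823 among 5 tested genes on chromosome III, with log2 fold changes of -1.22, -1.21 and -1.56. NCU05045, at one end of the stretch on chromosome VI, had 9.79, 11.4 and 12.6 CPM in crossed replicates 1, 2 and 3, against 112.6 and 27.8 CPM in uncrossed replicates 1 and 3. NCU05035, at the other end, had 16.2, 11.5 and 11.5 CPM against 40.9 and 35.3 CPM. Between them NCU05043 and NCU05042 had log2 fold changes of -1.81 and -2.38, and NCU05039 had 0.112, 0.175 and 0 CPM in crossed libraries against 2.93 and 0.454 CPM in uncrossed libraries. The 6 genes among them that are not members had log2 fold changes from -1.52 (NCU05036, whose groups lay 0.64 apart) to 0.42 (NCU05044). The stretch was thus mixed, with genes such as NCU05041 at 227, 253 and 269 CPM after crossing and 237 and 246 CPM before it.

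**Figure D5:**
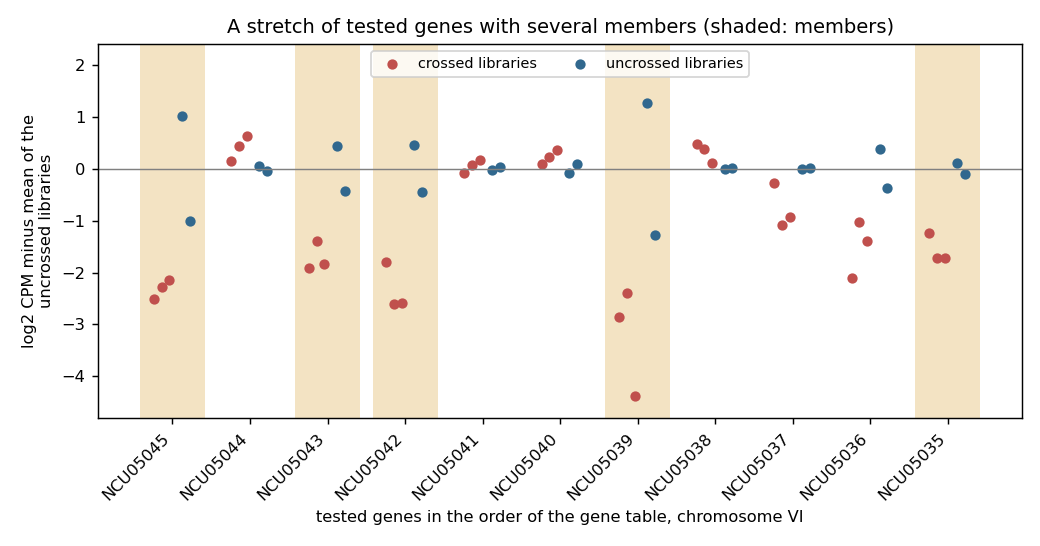
The 11 tested genes of this stretch in the order of the gene table, with log2 CPM in each library minus the mean of the uncrossed libraries. The 5 members (shaded) have all crossed libraries (red) below both uncrossed ones (blue), while genes such as NCU05041 and NCU05040 between them lie near 0.

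Chromosome VI held 19 members, 2.22% of its 854 tested genes, and chromosome I held 34, 1.58% of 2156. The share on the other 5 chromosomes was 0.990% to 1.41%. Of the members, 19 (15.7%) were among the 50 tested genes nearest an end of their chromosome, against 8.10% of all tested genes. The protein-coding members, 118 of the 121, had a median gene length of 1776 bp, against 2296 bp for all protein-coding genes tested. The other 3 are an rRNA gene, a tRNA gene and a non-coding RNA gene with at most 29 counts in any library. An overlap with another gene of the table was present in 15 members (12.4%), against 26.0% of all genes. These include T, NCU05586 and NCU07464 besides the 2 named above, and their reads may be shared with the overlapping gene.

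Lists of genes named for a role were set beside the members. Each was chosen by symbol, synonym or symbol prefix, so a listed gene need not have the role of its list. Of 74 tested glycoside hydrolase genes, gh18-6 was the member, 1 other was higher by the same margin, and the median log2 fold change was 0.03. None of the 59 amino acid synthesis genes (median -0.19), the 14 vacuolar ATPase genes (-0.04), the 10 cytosolic ribosomal protein genes (-0.31), the 6 acetate use genes (-0.09) or the 6 heterokaryon incompatibility genes (-0.44) met the rule in either direction. Nor did the 5 nitrogen use genes (-0.99). Of these, nit-3, nit-6 and nit-10, which act in nitrate uptake and assimilation, were singled out after their values were seen. They were lower in every crossed library by 0.26 to 0.40 log2 units, short of the margin. In nit-2 and nit-4 the groups overlapped. Groups lay apart in the lower direction in 20.6% of all tested genes. Some genes of other lists lay further apart, such as cys-14 by 0.76, arg-12 by 0.49 and acu-8 by 0.43 log2 units. Over these lists and the markers below, 191 genes were tested. None passed an adjusted p of 0.05 by edgeR, where 0.0347% of all genes were called lower, while 33 were lower (17.3%) and 17 higher (8.90%) at an unadjusted p under 0.05, against 11.0% and 10.3% of all genes. DESeq2 called 21 of them lower (11.0%) and 13 higher (6.81%), where it called 5.98% and 5.32% of all the genes it tested.

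The 5 markers of conidia (the hydrophobin gene eas with con-13, con-10, con-8 and con-6) were detected in every library, and none of them passed edgeR's threshold. Their log2 fold changes were 1.31, 2.43, 0.84, 0.45 and 1.18. In eas, con-13 and con-6 all crossed libraries lay above both uncrossed ones. How many of all tested genes lay apart in this direction by any margin is not given here. In the lower direction 20.6% did. Of the 5 markers con-13 alone met the margin of 0.8, as 0.648% of all tested genes did. In con-10 and con-8 the groups overlapped, with con-10 at 485, 1194 and 1048 CPM in crossed and 521 and 497 CPM in uncrossed libraries. The summed level of the 5 was 35718 to 64029 CPM in the crossed libraries, against 15162 and 30530 CPM in the uncrossed ones. Most of it was eas, with 27897, 47303 and 44024 CPM in crossed and 9197 and 22810 CPM in uncrossed libraries. Crossed replicates 2 and 3 had the highest sums and uncrossed replicate 1 the lowest, which is the reverse of the order seen in 55 members. The 7 markers of protoperithecia and female development, which include mfa-1 under its synonym poi-1, were also detected in every library. They summed to 6711 to 9024 CPM in the crossed libraries and to 6160 and 15055 CPM in the uncrossed ones, with a median log2 fold change of -0.30. The part of conidial RNA or of tissue composition in the lower values of the members was not tested.

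For 117 of the 121 members the authors' deposited table holds a relative expression estimate in both stages. In the authors' deposited table all 117 are lower after crossing, as are 6455 of the 8629 tested genes with an estimate in both. The median ratio of uncrossed to crossed in the authors' deposited table was 3.97 for the members and 1.15 for all tested genes. The 4 members without a crossed count are listed at 0 in that stage of the authors' deposited table. It rests on the same libraries and is no independent measurement.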

How the data were processed

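RNA of 3 crossed and 2 uncrossed cultures was sequenced from stranded libraries, per the labels' protocols. The values deposited by the authors are counts per gene, treated here as read counts. CASAVA 1.8.2, fastp, HISAT2 2.1.0 and StringTie 1.3.3b are named in the submitters' processing notes. The genome build, and whether strand was used when reads were counted, were not given in the sources used here. The authors' deposited table of relative expression holds a ratio per gene and stage, per the file headers.

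Of 10591 gene rows, 10590 matched the RefSeq gene table of assembly NC12 by locus tag, which gave symbols, lengths and gene order. A row with 6 values for 5 libraries (mat_a1) was left out. Genes were filtered with filterByExpr and scaled by TMM in edgeR 4.0.16 (R 4.3.3), with a prior count of 2 for log2 CPM. Members have a gap of at least 0.8 between the lowest uncrossed and the highest crossed log2 CPM. The quasi-likelihood test (two-sided, Benjamini-Hochberg, threshold 0.05) was fitted to all genes with group alone. SE comes from its F statistic. On counts simulated with known fold changes the test was required only to return their median size. The simulated libraries were drawn independently, so differences shared between replicates were not covered. DESeq2 1.42.0 and limma-voom (limma 3.58.1) were alternatives, and the numbers called by limma-voom are not given here.

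Named genes are the members with symbols, the 8 with the largest gaps, the 6 with the most counts, the 2 on either side of the threshold, those past edgeR's threshold, the 3 with the widest and the 3 with the narrowest crossed range, and neighbouring pairs. The members and lists were chosen with earlier results of these data known. A count of 0 allows 3 counts, 0.0717 to 0.110 CPM by library, which covers counting error only. The planned search of promoter motifs was not run, as no sequence was used here.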

Additional observations from a re-analysis of the deposited data

How the results depend on the processing

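The number of genes meeting the rule was 103 to 148 under DESeq2 size factors, plain library sizes, a prior count of 0.5, no ribosomal RNA genes, no filter or a filter of 1 CPM in 2 libraries. It was 192 with a gap of 0.6 and 78 with a gap of 1, and 140 to 566 with each library left out in turn. The members' median log2 fold change was -2.16 with plain library sizes, where the median of all genes was -0.21, and ran from -2.10 to -1.43 with each library left out, the weakest without uncrossed replicate 1. Every member that could be fitted kept a fold change below 0 in each of these fits. The gap rule chose the members in the same libraries, so this outcome was largely set in advance and lends no support. DESeq2 called 522 genes lower, 104 of them members, and with the replicate number as a block edgeR called 136, of which 51 were members. What a replicate number stands for is not in the labels, and the crossed replicate 2 has no partner, so the block was taken as a shared number and no more. Same-numbered libraries deviated from their group means with correlations of 0.26 and 0.22 across genes. With each library left out, edgeR called 0 to 401 genes lower and 0 to 68 members. These were 401 and 68 without crossed replicate 1, and 137 and 36 without uncrossed replicate 3. Both counts were 0 when uncrossed replicate 1, or crossed replicate 2, or crossed replicate 3 was left out, where 477, 489 and 477 genes were lower at an unadjusted p under 0.05. A lone uncrossed library was taken to vary as the crossed ones do. Over all named genes and settings, 66 of 525 gaps and 47 of 525 fold changes moved by more than the spread between replicates. The cause of these moves was not tested. No fold change turned its sign, which the choice of these genes by the same contrast made likely. Members under 1 CPM rest on few reads.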
